A study of Mus musculus with 24 samples.

Results

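The level of each gene in livers lacking the thyroid hormone receptor TRβ, 6 h after an injection of the active thyroid hormone T3, was compared with its level in wild-type livers given the same injection. The comparison used 6 of the 24 arrays of the series, the 3 with titles beginning KO_T3 and the 3 with titles beginning WT_T3, and no measured value entered their choice. It asks which genes do not attain the hormone-stimulated wild-type level without TRβ, and which attain or exceed it.

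All 6 arrays came from liver of male mice on a C57BL/6J background, aged 8 to 9 weeks, wild type or TRβ knockout. Every mouse had first been made hypothyroid over 3 weeks with 0.02% methimazole, 0.5% perchlorate and 0.3% saccharine in the water and a diet low in iodine, so the controls were hypothyroid mice too. T3 was given intraperitoneally at 20 µg per 100 g body weight. WT_PBS and KO_PBS, 3 arrays each, came from mice of the same genotypes prepared alike and injected with PBS. The GS_T3 arrays came from mice whose TRβ carries the changes E125G and G126S in its DNA-binding domain, prepared and injected likewise. The Y147F arrays came from a later submission: male C57BL/6JCrl mice aged 10 to 11 weeks with a single amino acid replaced in TRβ, given 0.05% methimazole and 1% perchlorate for 3 weeks and, in Y147F_T3, 200 ng T3 per g. The labels do not say which part of Thrb is deleted, whether knockout and wild-type mice were littermates, or whether an array pooled animals. Each title carries its own number, so each array was taken as 1 animal; if that is wrong, the p-values measure only the spread between these arrays.

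TRβ is the main thyroid hormone receptor of hepatocytes and binds DNA, mostly as a heterodimer with RXR, at elements built from AGGTCA half-sites. On genes that T3 induces, the receptor without hormone recruits corepressors, and T3 exchanges them for coactivators. Loss of the receptor can therefore appear both as a missing rise with T3 and as a raised level without it. The related receptor TRα, encoded by Thra, is still present in TRβ knockout mice. Known hepatic actions of T3 include deiodination of thyroid hormones, lipogenesis, cholesterol disposal and mitochondrial oxidation.

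The promoters of Dio1, of Frmd8 with its neighbour Slc25a45, of Bcl3 and of Stat5a are shown first, because the shortfall of these T3-induced genes is the clearest result below. Each line gives the 250 bases before the RefSeq start on GRCm38.p6, read 5′ to 3′ on the strand of the gene, with any AGGTCA half-site, or TGACCT for the other strand, in capitals.

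Dio1, chr4:107307169-107307418, minus strand: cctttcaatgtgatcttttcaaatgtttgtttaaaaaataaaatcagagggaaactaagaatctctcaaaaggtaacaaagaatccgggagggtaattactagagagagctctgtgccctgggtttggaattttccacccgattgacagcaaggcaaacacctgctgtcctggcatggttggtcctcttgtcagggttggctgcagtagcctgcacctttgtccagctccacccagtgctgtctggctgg
Frmd8, chr19:5875209-5875458, minus strand: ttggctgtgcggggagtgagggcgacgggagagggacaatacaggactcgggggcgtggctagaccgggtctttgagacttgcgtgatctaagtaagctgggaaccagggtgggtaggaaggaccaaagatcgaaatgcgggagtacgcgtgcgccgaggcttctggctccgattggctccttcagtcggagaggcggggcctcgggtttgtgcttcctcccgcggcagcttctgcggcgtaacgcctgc
Slc25a45, chr19:5877572-5877821, plus strand: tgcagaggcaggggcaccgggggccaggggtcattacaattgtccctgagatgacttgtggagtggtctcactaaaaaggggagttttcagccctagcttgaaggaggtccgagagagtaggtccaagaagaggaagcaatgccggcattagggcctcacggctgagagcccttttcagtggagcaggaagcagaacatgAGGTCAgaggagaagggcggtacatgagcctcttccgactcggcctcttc
Bcl3, chr7:19822756-19823005, minus strand: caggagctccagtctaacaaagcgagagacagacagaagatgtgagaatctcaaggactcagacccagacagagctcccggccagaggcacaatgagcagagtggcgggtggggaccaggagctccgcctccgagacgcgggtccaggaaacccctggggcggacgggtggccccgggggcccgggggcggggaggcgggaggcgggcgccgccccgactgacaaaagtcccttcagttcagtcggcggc
Stat5a, upstream start, chr11:100859406-100859655, plus strand: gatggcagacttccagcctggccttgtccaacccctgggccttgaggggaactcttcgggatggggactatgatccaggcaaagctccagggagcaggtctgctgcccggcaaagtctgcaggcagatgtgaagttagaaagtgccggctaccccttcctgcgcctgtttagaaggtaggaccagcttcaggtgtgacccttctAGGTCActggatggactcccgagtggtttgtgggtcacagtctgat
Stat5a, downstream start, chr11:100860234-100860483, plus strand: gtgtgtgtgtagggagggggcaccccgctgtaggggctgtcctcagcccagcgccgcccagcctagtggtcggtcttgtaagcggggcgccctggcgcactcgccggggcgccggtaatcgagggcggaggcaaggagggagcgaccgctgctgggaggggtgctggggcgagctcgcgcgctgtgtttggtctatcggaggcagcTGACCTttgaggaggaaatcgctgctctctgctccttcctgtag

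A half-site stands in the Slc25a45 promoter and 1 in each Stat5a promoter, and none in these windows of Dio1, Frmd8 and Bcl3. A promoter was matched by symbol for 411 of the 507 genes lower in knockout liver after T3, for 386 of the 475 higher genes and for 11375 of all 14162 genes tested. A half-site on either strand was present in 10.4% of the promoters of the lower genes and in 14.4% of those of the higher genes, against 11.8% of the promoters of all genes tested. The direct repeat of AGGTCA with 4 bases between its copies, on either strand, was in 0 of 558 promoters of lower genes and 0 of 515 of higher genes, and in 0.0138% of all. These shares describe letters in a short window and were not tested.

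The median log2 intensity of the 6 arrays ranged from 5.88 to 5.98, and arrays of a group correlated at a mean r of 0.996 in both groups. The probe set of Thrb did not show the deletion: it read 6.85, 6.38 and 6.76 in WT_T3 and 7.11, 6.95 and 6.82 in KO_T3, a log2 difference of 0.30 ± 0.17 (SE; limma adjusted p = 0.368), and where its probes lie was not examined. The numbers in the titles of the WT_T3 arrays lie below 100000 and those of the KO_T3 arrays above it, so a cohort marked by these numbers and the genotype cannot be told apart within the 6 arrays. A fit with a covariate for these numbers, estimated from other groups, is given beside the counts, and each named gene whose call it ended is named with its adjusted p, as is each whose call ended in a fit of the 6 arrays alone. Levels below are log2 intensities of 1 probe set per gene, compared between arrays and never between genes. Differences are KO minus WT on the log2 scale ± SE, with n = 3 arrays per group and adjusted p-values from limma over all genes tested. The small number of arrays limits their precision.

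Of 14162 genes tested, 982 (6.93%) were called between KO_T3 and WT_T3, meaning an adjusted p under 0.05. In knockout liver 507 genes (3.58%) were lower, with a median difference of -0.47, and 475 (3.35%) were higher, with a median of 0.43. The difference was at least 2-fold for 38 of the lower genes (0.268% of genes tested) and 49 of the higher genes (0.346%). The 3 KO_T3 arrays all lay on 1 side of the 3 WT_T3 arrays for 500 of the 507 and 471 of the 475, and for 26.9% of all genes tested. The number of higher genes was 281, 265 and 284 without KO_T3 array 2, WT_T3 array 2 or WT_T3 array 3, which are numbered in deposited order. The number of lower genes stayed between 338 and 417 when any 1 of the 6 arrays was left out. With the covariate for title numbers 298 genes were lower and 141 higher, of which 254 and 126 were among the 507 and the 475.

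The deepest shortfall was in Dio1, the deiodinase that converts thyroxine to T3 in liver and a classical marker of thyroid hormone action. Its probe set read 11.33, 10.92 and 11.67 in the WT_T3 arrays and 7.45, 8.06 and 7.72 in the KO_T3 arrays. The groups were far apart, and the difference was -3.56 ± 0.28 (adjusted p = 3.06e-07), an 11.8-fold lower level in knockout liver. Without T3 the order was the reverse: Dio1 read 5.06, 4.49 and 4.50 in WT_PBS and 6.09, 6.14 and 5.54 in KO_PBS (1.24 ± 0.28, adjusted p = 0.00969). The WT_PBS mean lay below the highest of the 25th percentiles of those arrays. The genotype difference with T3 less that without T3 was -4.80 ± 0.40 (adjusted p = 8.24e-07). The WT_PBS signal was thus not clearly above background, so the values that rest on it are differences between signals, whose size as a change in level is not known.

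Frmd8 had the next largest fall; it encodes a FERM domain protein that binds the iRhom partners of the sheddase ADAM17. It read 11.18, 11.49 and 11.42 in WT_T3 and 9.77, 8.88 and 9.19 in KO_T3, so that all knockout arrays were lower. The difference was -2.08 ± 0.18 (adjusted p = 5.04e-07), a 4.24-fold lower level. Slc25a45, a mitochondrial carrier gene whose start lies 2614 bases from that of Frmd8 on chromosome 19 in the opposite direction, was lower too, reading 10.84, 11.01 and 11.01 against 10.29, 10.11 and 10.09 (-0.79 ± 0.13, adjusted p = 0.000546). Both genes were higher in knockout liver without T3, by 0.76 and 0.89.

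Bcl3, an atypical IκB protein that acts with the NF-κB subunits p50 and p52, read 10.27, 10.09 and 10.13 in WT_T3 and 8.65, 8.41 and 8.52 in KO_T3. All knockout arrays were again lower, by -1.64 ± 0.17 (adjusted p = 3.95e-06), a 3.12-fold difference. In the PBS arrays it read 6.91, 7.61 and 7.52 in wild type and 8.03, 8.58 and 8.52 in knockout, so the KO_T3 and KO_PBS levels overlapped while the wild-type levels with and without T3 did not. Of the 11 measured genes of Bcl3 and NF-κB factors, Bcl3 alone was called and the other 10 reached the wild-type level, in the sense defined below.

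Other large falls were in genes of different roles. Gpcpd1, a glycerophosphocholine phosphodiesterase, read 13.11, 13.10 and 13.02 in WT_T3 and 11.79, 11.76 and 11.91 in KO_T3, a difference of -1.26 ± 0.21 (adjusted p = 0.000707). Sned1, an extracellular matrix gene, fell by 1.45, and the genes of the BH3-only proteins BMF and BIM, which promote apoptosis, fell by 1.35 (Bmf) and 1.09 (Bcl2l11). Prodh, the first enzyme of proline breakdown, fell by 1.00, and Rrm2, a subunit of ribonucleotide reductase, by 1.09. These genes kept their calls when any 1 of the 6 arrays was left out, and of them only Bmf was called without T3, being 1.08 higher there. Cyp26a1, which inactivates retinoic acid, fell by 1.51 (adjusted p = 0.0108), a call lost without KO_T3 array 2 or WT_T3 array 1 (adjusted p up to 0.0762). Ighm, the immunoglobulin μ heavy chain, was lower by its brightest probe set, reading 10.04, 10.01 and 9.70 against 8.93, 7.44 and 7.79 (-1.86 ± 0.30, adjusted p = 0.000569), but 7 of its 11 probe sets had a difference above 0, up to 0.19. By the mean of its 3 probe sets Bmf differed by -0.70, and by the mean of its 11 Ighm differed by -0.30. The Cyp26a1 call was also lost in the fit of the 6 arrays alone (adjusted p = 0.0793).

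A further set of genes was low in knockout liver whether or not T3 had been given. Serpinb1a, an inhibitor of neutrophil proteases, read 8.22, 8.22 and 8.70 in WT_T3 and 6.27, 6.69 and 6.64 in KO_T3, a difference of -1.84 ± 0.24 (adjusted p = 6.38e-05). Without T3 the difference was -2.10 ± 0.24 (adjusted p = 3.51e-05), and the change in the difference had a 95% interval of -0.45 to 0.98. The glutathione transferases Gsta2 (-1.07 with and -1.07 without T3) and Gstm2 (-0.86 and -1.10) and the coactivator Ppargc1a (-0.88 and -0.69) were also called lower in both. Nnmt, nicotinamide N-methyltransferase, read 11.78, 12.02 and 11.68 against 10.63, 9.18 and 10.37 (-1.76 ± 0.52, adjusted p = 0.045), a call lost without KO_T3 array 2, KO_T3 array 3, WT_T3 array 1, WT_T3 array 2 or WT_T3 array 3 (adjusted p up to 0.214). The Nnmt call was also lost with the covariate (adjusted p = 0.379), and that of Gstm2 with the 6 arrays alone (0.0837).

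**Figure D1:**
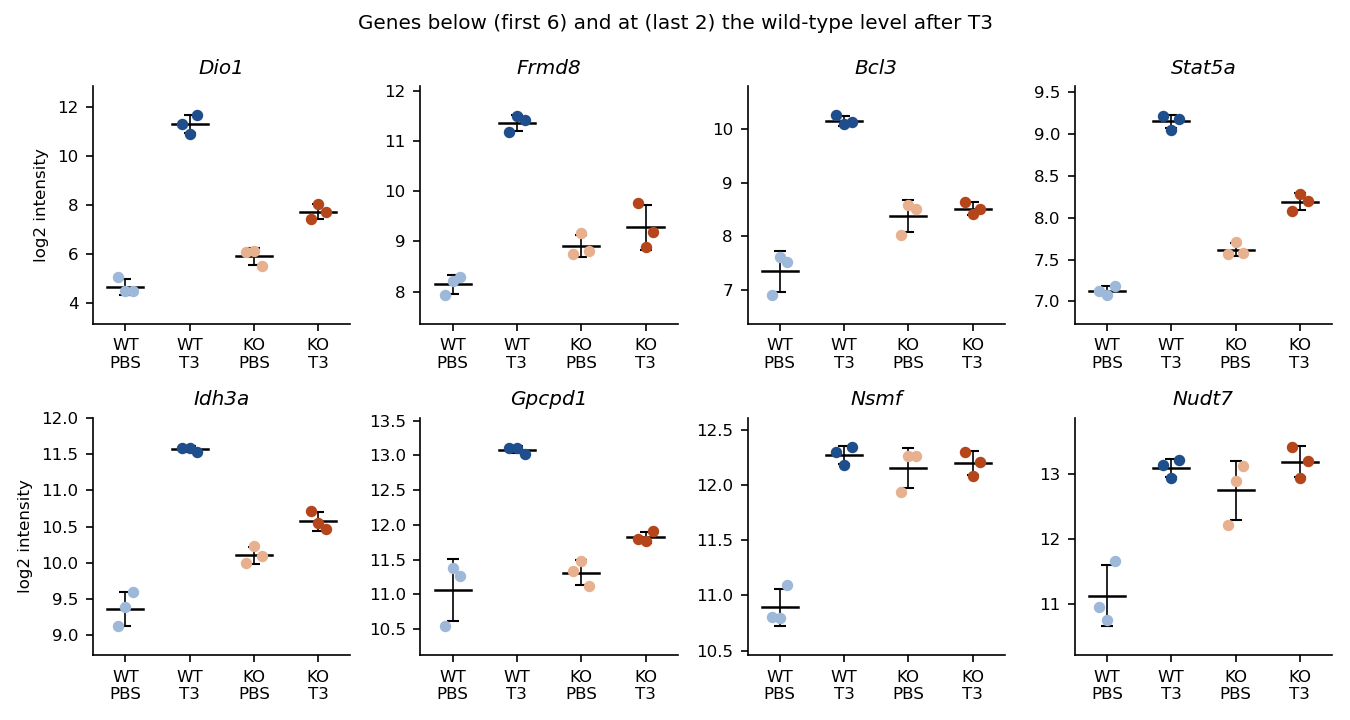
Each panel shows the log2 intensity of 1 gene in the 12 wild-type (WT) and knockout (KO) arrays given PBS or T3, 1 point per array, with a line at the group mean and the SD as the error bar (n = 3); the vertical axes differ between panels and do not start at 0. In Dio1, Frmd8, Bcl3, Stat5a, Idh3a and Gpcpd1 the KO_T3 arrays lie below all WT_T3 arrays, as at 7.45 to 8.06 against 10.92 to 11.67 for Dio1, while in Nsmf and Nudt7 the groups with T3 overlap.

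Among the genes above the wild-type level was Socs2, which encodes a feedback inhibitor of the growth hormone receptor that STAT5 induces. It read 6.96, 6.30 and 6.05 in WT_T3 and 8.54, 10.00 and 8.70 in KO_T3. The groups did not overlap, and the difference was 2.64 ± 0.42 (adjusted p = 0.000428), a 6.25-fold higher level without TRβ by its brightest probe set. Its 6 probe sets had differences from 0.04 to 2.86, and their mean gave 1.06. In the PBS arrays it read 10.01, 10.01 and 10.41 in wild type and 8.93, 10.19 and 10.00 in knockout (-0.44 ± 0.42, adjusted p = 0.636). Of the 4 groups the WT_T3 arrays alone were low, and the change in the genotype difference was 3.08 ± 0.59 (adjusted p = 0.0039). Cish, another feedback inhibitor induced by STAT5, was higher by 1.69 ± 0.38 (adjusted p = 0.00761), a call lost without KO_T3 array 2 (adjusted p = 0.0586) and with the 6 arrays alone (0.0624).

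Inhbe, the gene of the activin βE subunit made mainly in liver, had the same arrangement. It read 7.84, 8.05 and 8.21 in WT_T3 and 9.94, 9.65 and 10.15 in KO_T3, a difference of 1.88 ± 0.20 (adjusted p = 4.45e-06). Without T3 the genotypes differed by 0.07 ± 0.20 (adjusted p = 0.897), and the WT_PBS arrays read 9.92, 10.12 and 10.62. Etfbkmt, a methyltransferase of electron transfer flavoprotein, read 8.97, 8.65 and 8.25 against 10.78, 10.50 and 10.49 (1.96 ± 0.22, adjusted p = 1.26e-05). In both genes the WT_T3 arrays were the lowest of the 12.

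Onecut1, the gene of the hepatocyte transcription factor HNF6, read 6.35, 6.02 and 6.65 against 7.52, 8.75 and 8.13 (1.80 ± 0.41, adjusted p = 0.00999), a call lost without KO_T3 array 2 or WT_T3 array 2 (adjusted p up to 0.0663). Gadd45g, a growth arrest gene, was the most scattered of the large rises, reading 6.13, 6.90 and 5.55 in WT_T3 and 9.26 ± 1.97 (SD, n = 3) in KO_T3. Its difference of 3.07 ± 0.79 (adjusted p = 0.0202) lost its call without KO_T3 array 1, KO_T3 array 2, WT_T3 array 1 or WT_T3 array 3 (adjusted p up to 0.113). G0s2, an inhibitor of triglyceride lipase, was higher by 1.57 ± 0.39 (adjusted p = 0.0166), a call lost without KO_T3 array 1, KO_T3 array 3 or WT_T3 array 2 (adjusted p up to 0.0731). With the covariate the calls of Gadd45g (adjusted p = 0.272) and G0s2 (0.0988) were lost, and with the 6 arrays alone that of Gadd45g (0.0982).

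A pair of lipid genes crossed over between the states. Acot3, a peroxisomal acyl-CoA thioesterase, read 8.88, 8.41 and 8.92 in WT_T3 and 10.49, 11.74 and 10.01 in KO_T3, higher in the knockout by 2.01 ± 0.45 (adjusted p = 0.00861). In the PBS arrays it read 12.14, 12.23 and 12.13 in wild type and 10.79, 9.21 and 10.03 in knockout, lower there (-2.15 ± 0.45, adjusted p = 0.00614). Its call with T3 was lost without KO_T3 array 2 (adjusted p = 0.0668) and with the covariate (0.0574). Cers6, a ceramide synthase that makes C16 ceramides, read 6.63, 6.77 and 7.08 against 8.45, 8.53 and 7.74 with T3 (1.41 ± 0.24, adjusted p = 0.000885) and was lower in the knockout without it (-0.90 ± 0.24, adjusted p = 0.0264). Cers6 kept its call with T3 when any 1 of the 6 arrays was left out.

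Other high genes were high without hormone as well. Apoa4, an apolipoprotein of triglyceride-rich particles, read 11.31, 11.98 and 11.61 in WT_T3 and 14.25, 14.13 and 13.94 in KO_T3 (2.48 ± 0.37, adjusted p = 0.000241), and differed by 2.11 ± 0.37 without T3 (adjusted p = 0.00129). Sult2a8, a hepatic sulfotransferase of bile acids, read 12.11, 10.86 and 10.77 against 13.38, 13.29 and 13.38 (2.11 ± 0.33, adjusted p = 0.000387), and differed by 2.78 ± 0.33 without T3 (adjusted p = 3.68e-05). Serpina4-ps1, annotated as a serpin pseudogene, had the largest rise of all called genes, reading 6.93, 6.80 and 7.48 against 10.62, 11.55 and 10.25 (3.74 ± 0.36, adjusted p = 1.43e-06), and 2.46 without T3. Fgf21, a fasting hormone of the liver, was 1.06 higher with and 1.18 higher without T3, the call with T3 being lost with the covariate (adjusted p = 0.0625). The change in the genotype difference had intervals of -0.72 to 1.46 for Apoa4, -1.64 to 0.29 for Sult2a8, 0.23 to 2.34 for Serpina4-ps1 and -0.78 to 0.54 for Fgf21, and none of the 4 was called by limma (adjusted p from 0.249 to 0.944). Acot, Sult2a, Serpina and Mup genes have close relatives, and how far their probes are shared was not examined.

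**Figure D2:**
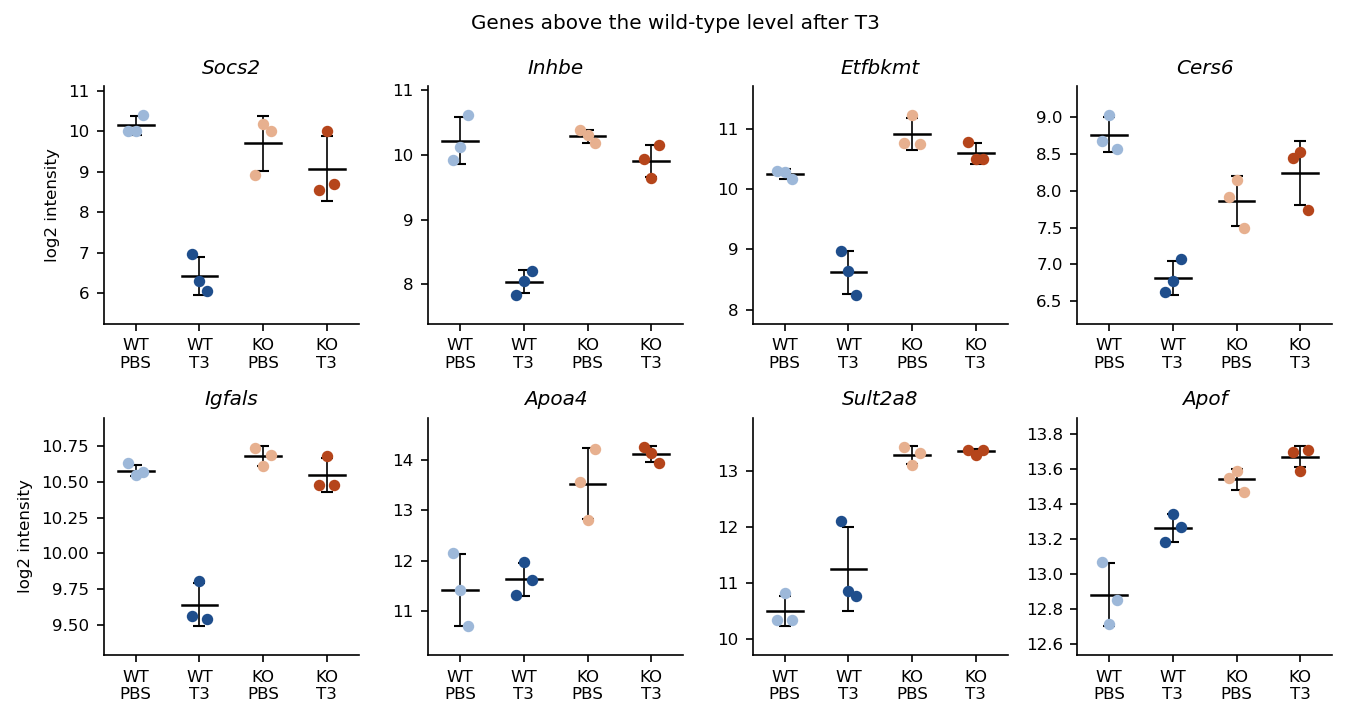
Each panel shows the log2 intensity of 1 gene in the 12 wild-type (WT) and knockout (KO) arrays given PBS or T3, 1 point per array, with a line at the group mean and the SD as the error bar (n = 3); the vertical axes differ between panels and do not start at 0. In Socs2, Inhbe, Etfbkmt, Cers6 and Igfals the WT_T3 arrays are the lowest, while in Apoa4, Sult2a8 and Apof both knockout groups stand above both wild-type groups.

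How the end state relates to the state without hormone was read from the 6 PBS arrays of these genotypes, which share no array with the comparison. The title numbers of the KO_PBS arrays all lie above 100000 too, and those of the WT_PBS arrays mostly below it. A cohort marked by these numbers thus largely coincides with genotype there as well, and both comparisons use the same estimate of the spread. Calls shared with and without T3 are therefore not independent evidence of a genotype effect. Without T3, 440 genes (3.11%) were lower and 533 (3.76%) higher in knockout liver. Of the 507 genes lower with T3, 90 (17.8%) were also lower without it, which is 20.5% of the 440, and 53 (10.5%) were higher without it, 9.94% of the 533. Of the 475 genes higher with T3, 112 (23.6%) were also higher without it, 21% of the 533, and 8 (1.68%) were lower. The 90 became 59, 53 and 51 without KO_T3 array 2, WT_T3 array 2 or WT_T3 array 3, and the 112 became 72 without WT_T3 array 3. With the covariate they were 41 and 32. The change in the genotype difference itself was called for 291 genes (2.05%) in the lower and 146 (1.03%) in the higher direction, the latter becoming 93, 95 and 97 without KO_T3 array 2, WT_T3 array 2 or WT_T3 array 3.

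GS_T3 against Y147F_T3 gave an end-state comparison in arrays outside both groups. It sets a TRβ known to have lost DNA binding against one known to respond to T3 much as wild type does. These groups come from separate submissions with different ages, strains and hypothyroid treatments, which cannot be told apart from genotype there. Their T3 doses, 20 µg per 100 g and 200 ng per g, are the same. This comparison had 360 genes lower (2.54%) and 286 higher (2.02%). Of the 507 genes lower in KO_T3, 226 (44.6%) were lower there too, which is 62.8% of the 360, and 1 was higher. Of the 475 higher genes, 132 (27.8%) were higher there, 46.2% of the 286, and 0 were lower. With the covariate the 132 became 67. Both comparisons use the same estimate of the spread, so calls shared between them are not fully independent.

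For all genes tested, the share with the same direction in KO_T3 against WT_T3 and in GS_T3 against Y147F_T3 was not counted. Of the genes called in KO_T3, 468 of the 507 lower and 430 of the 475 higher had the same direction in GS_T3 against Y147F_T3. Taf15 (-1.36 in KO_T3) and Dixdc1 (-1.01) did not, at 0.23 and 0.20. The Taf15 call in KO_T3 was lost with the covariate (adjusted p = 0.0595), with the 6 arrays alone (0.065) and by the mean of its 2 probe sets (-0.75, adjusted p = 0.0676). Dio1 differed by -3.80 ± 0.28 (adjusted p = 9.67e-08), Frmd8 by -2.17 ± 0.18 (1.77e-07) and Bcl3 by -2.22 ± 0.17 (1.11e-07). Socs2 differed by 2.31 ± 0.42 (adjusted p = 0.00199), Inhbe by 1.44 ± 0.20 (0.000126) and Etfbkmt by 1.94 ± 0.22 (1.63e-05). Serpinb1a, low in knockout liver with and without T3, differed by -1.96 ± 0.24 (adjusted p = 3.46e-05). Gadd45g (1.19, adjusted p = 0.477), Nnmt (-0.43, 0.755) and Lrtm1, a leucine-rich repeat gene lower in KO_T3 by -1.56 (-0.34, 0.729), were not called there; the Lrtm1 call in KO_T3 was lost without KO_T3 array 2, WT_T3 array 2 or WT_T3 array 3 (adjusted p up to 0.0977), with the covariate (0.114) and with the 6 arrays alone (0.0554), and the mean of its 2 probe sets was -0.85.

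**Figure D3:**
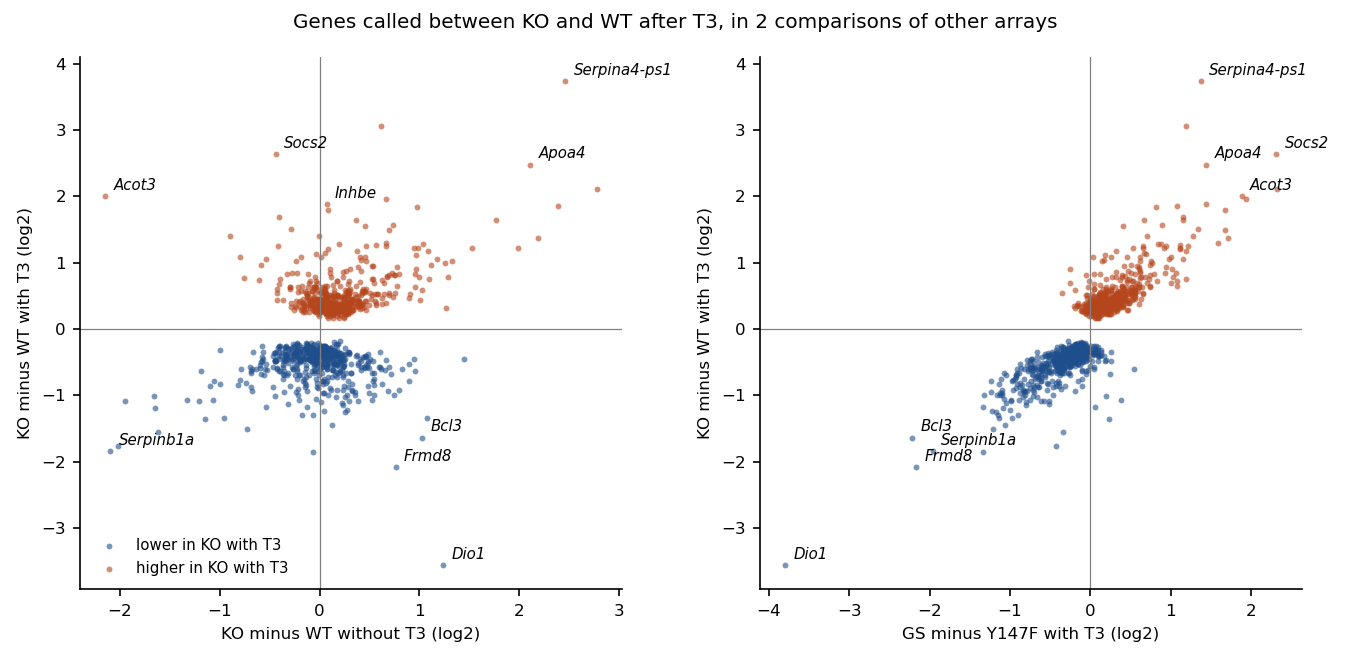
Both panels plot 1 point for each of the 982 genes called between KO_T3 and WT_T3, with the KO minus WT log2 difference with T3 on the vertical axis; the horizontal axis is the KO minus WT log2 difference without T3 (left) or the GS minus Y147F log2 difference with T3 (right). Dio1, Frmd8 and Bcl3 lie below 0 with T3 and above 0 without it on the left, and below 0 on both axes on the right, where 468 of the 507 lower genes (blue) and 430 of the 475 higher genes (red) have the same sign on both axes. The share of all genes tested with the same sign on both axes was not counted.

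Genes that respond to T3 were picked in the Y147F mice, where T3 raised 782 genes (5.52%) and lowered 862 (6.09%). Each was placed by its level in KO_T3 against WT_T3 as below or above (called), as having reached the wild-type level (not called, with the 95% interval of the difference inside a 1.5-fold margin either way) or as undecided. Of the 782 raised genes, 264 (33.8%) were below wild type, 445 (56.9%) reached it, 9 (1.15%) were above and 64 (8.18%) undecided. Of all genes tested, 3.58% were below, 86.5% reached, 3.35% above and 6.57% undecided. A called gene was placed as below or above even where its interval lay inside the 1.5-fold margin. This held for 63 of the 782 raised genes, 48 of the 862 lowered genes and 360 of all genes tested, whose differences were thus small. Of the 109 genes that T3 raised at least 2-fold in Y147F liver, 72 (66.1%) were below and 11 (10.1%) reached the wild-type level. The title numbers of the Y147F_PBS arrays all lie above 100000, and those of the Y147F_T3 arrays mostly below it. A cohort marked by these numbers thus partly coincides with T3 in the picking, and with genotype in the placing. Both steps also use the same estimate of the spread, so these shares are not independent of either. With the covariate 189 raised genes were below wild type.

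Of the 862 lowered genes, 152 (17.6%) were above wild type, 609 (70.6%) reached it, 11 (1.28%) were below and 90 (10.4%) undecided. Of the 52 lowered at least 2-fold, 28 (53.8%) were above and 3 (5.77%) reached it. The 152 became 100 without KO_T3 array 2 or WT_T3 array 3, and 56 with the covariate, under which 328 of the lowered genes reached the wild-type level. At a narrower margin of 0.32 on the log2 scale in place of 1.5-fold, 240 of the raised and 321 of the lowered genes reached it. The lowered genes above wild type included Socs2, Inhbe, Cers6 and Tgm1, a transglutaminase; Tgm1 read 6.43, 6.02 and 6.15 against 6.94, 7.37 and 7.48 (1.06 ± 0.21, adjusted p = 0.00345), a call lost with the covariate (0.0576).

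**Figure D4:**
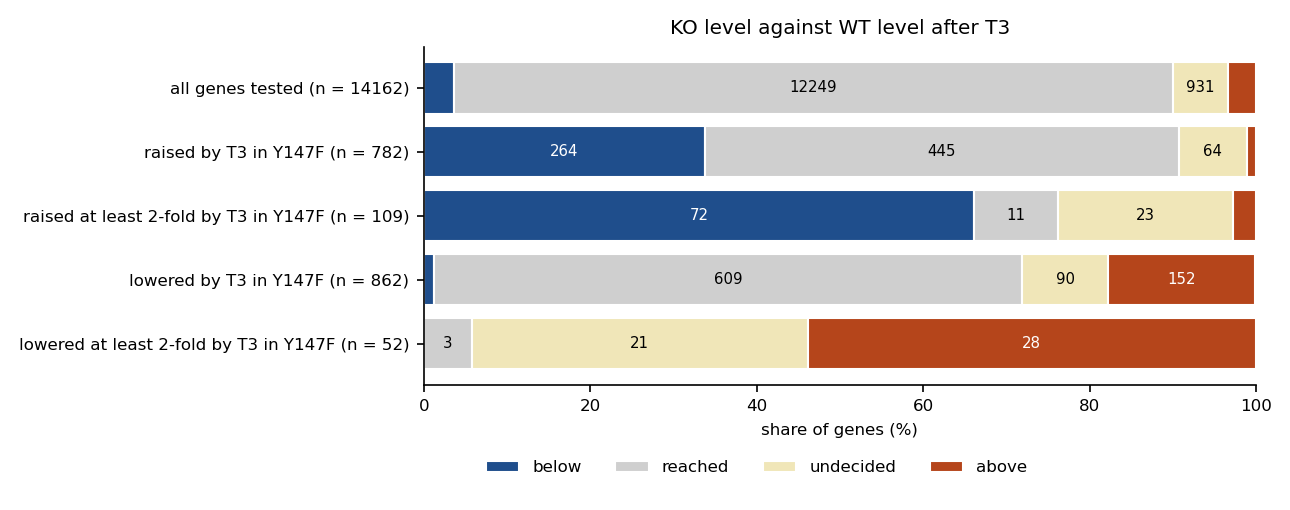
Each bar divides a set of genes by the KO level against the WT level after T3 (below, reached, undecided or above), as a share of genes in %, with the number of genes printed in the larger segments; the sets are all genes tested and the genes that T3 raised or lowered in Y147F liver. The share below wild type is 3.58% for all genes, 33.8% for the raised and 66.1% for those raised at least 2-fold.

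Some of the raised genes that reached the wild-type level were already high in knockout liver without hormone. This was not particular to them. The genes raised at least 2-fold, of which 66.1% were below wild type with T3, had a median difference of 0.49 without it. For all raised genes that median was 0.15. Of the 445, 113 (25.4%) were called higher in KO_PBS than in WT_PBS and 2 lower, while of the 12249 genes of all kinds that reached, 2.55% were higher and 2.37% lower. Nsmf, a gene of signalling from synapse to nucleus, read 12.30, 12.18 and 12.34 in WT_T3 and 12.30, 12.08 and 12.21 in KO_T3, which overlapped, with an interval of -0.28 to 0.14. Its KO_PBS arrays read 11.94, 12.26 and 12.26, against 10.80, 10.79 and 11.09 in WT_PBS, so that both knockout groups and the WT_T3 group lay together. Pdp2, a phosphatase that activates pyruvate dehydrogenase, read 9.56, 9.36 and 9.26 against 9.15, 9.16 and 9.16 with T3, with an interval of -0.40 to -0.07, inside the margin and below 0. Without T3 it was 1.11 ± 0.08 higher (adjusted p = 5.11e-08).

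Nudt7, a peroxisomal CoA diphosphatase, read 13.14, 12.94 and 13.22 against 13.42, 12.94 and 13.20 with T3, with an interval of -0.39 to 0.57, and was 1.62 ± 0.23 higher without it (adjusted p = 0.000233). Of its 4 probe sets 3 had a difference below 0 with T3. Osgin1, an oxidative stress response gene, differed by -0.12 with T3 (interval -0.54 to 0.30) and 1.23 without it (adjusted p = 0.000789). Mmd, Ciapin1 and Dock8 had differences of -0.20, -0.12 and -0.18 with T3 and of 0.74, 0.52 and 0.68 without it. Qrsl1, a subunit of the mitochondrial transamidase, reached the wild-type level (-0.19) with no call without T3 (0.45, adjusted p = 0.0954).

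Among the lowered genes, 89 (14.6%) of the 609 that reached the wild-type level were lower in knockout liver without T3 and 4 were higher. Il17rb, a receptor chain for interleukin 17, read 7.62, 7.46 and 7.52 in WT_T3 and 7.56, 7.55 and 7.53 in KO_T3, which overlapped, and was lower without T3 (-0.66 ± 0.10, adjusted p = 0.000451). Slc43a1, an amino acid transporter, differed by -0.02 with T3 (interval -0.38 to 0.35) and -0.74 without it. Per1, a clock repressor, read 8.50, 8.57 and 7.99 against 8.31, 8.62 and 8.10 (interval -0.46 to 0.44) and differed by -0.13 without T3 (adjusted p = 0.823).

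The 9 raised genes above the wild-type level included Apof, an apolipoprotein that inhibits cholesteryl ester transfer, which read 13.18, 13.34 and 13.27 against 13.70, 13.59 and 13.71 (0.40 ± 0.08, adjusted p = 0.00412) and was 0.66 higher without T3. Sult5a1, a sulfotransferase, was higher by 0.95 ± 0.19 (adjusted p = 0.0027). Letm1, a cation exchanger of the inner mitochondrial membrane, read 9.40, 9.43 and 9.39 against 9.79, 9.55 and 9.85 (0.32 ± 0.08, adjusted p = 0.022), after a difference of 1.27 without T3; the call was lost without KO_T3 array 1, KO_T3 array 3, WT_T3 array 1, WT_T3 array 2 or WT_T3 array 3 (adjusted p up to 0.109). The calls of Apof (adjusted p = 0.124) and Letm1 (0.22) were lost with the covariate, and that of Letm1 with the 6 arrays alone (0.0869) and by the mean of its probe sets (0.0609). The 9 genes became 5 without KO_T3 array 1, KO_T3 array 3 or WT_T3 array 2, and 1 with the covariate. Among the 11 lowered genes below wild type, Dixdc1, a gene of Wnt signalling, read 10.21, 9.90 and 9.97 against 9.02, 8.92 and 9.12 (-1.01 ± 0.13, adjusted p = 4.72e-05), with 1 of its 4 probe sets above 0 and a mean over them of -0.47. Echdc3, a mitochondrial enoyl-CoA hydratase-like gene, was lower, at -0.34 with and -0.57 without T3. The 11 became 5, 4, 6 and 7 without KO_T3 array 1, WT_T3 array 1, WT_T3 array 2 or WT_T3 array 3, and 3 with the covariate.

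Gene lists grouped by function are described by their counts, beside 3.58% lower and 3.35% higher of all genes tested. The lists were chosen with earlier results of these data known, so their counts are a description and not independent evidence. Of the 20 measured hepatic T3 targets, 8 were lower, 0 higher, 6 reached the wild-type level and 6 were undecided, with a median of -0.50 against 0.02 for all genes tested. Beside Dio1, Bcl3, Stat5a and Ppargc1a, the lower members included Idh3a, a subunit of mitochondrial isocitrate dehydrogenase, which read 11.59, 11.59 and 11.53 in WT_T3 and 10.71, 10.55 and 10.46 in KO_T3 (-0.99 ± 0.11, adjusted p = 4.49e-06), with 1 of its 4 probe sets of opposite sign. Mlxipl, which encodes the carbohydrate response factor ChREBP, read 12.21, 11.94 and 11.97 against 11.72, 11.23 and 11.45 (-0.57 ± 0.12, adjusted p = 0.0053), a call lost with the covariate (-0.37, adjusted p = 0.156) and with the 6 arrays alone (0.056). Gpd2, the mitochondrial glycerol 3-phosphate dehydrogenase, was lower, at -0.46 ± 0.14 (adjusted p = 0.0496) after being 1.45 higher without T3, and its call was lost without any 1 of the 6 arrays (adjusted p up to 0.15) and with the covariate (0.0904). Abcg8, part of the hepatic sterol exporter, was lower, at -0.65 ± 0.18 (adjusted p = 0.0278), a call lost without KO_T3 array 1, KO_T3 array 3, WT_T3 array 1, WT_T3 array 2 or WT_T3 array 3 (adjusted p up to 0.124).

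The targets that reached the wild-type level were Klf9 (0.08), Me1 (0.11), G6pc (-0.09), Pck1 (0.25), Apoa1 (0.06) and Hr (0.14), where values are log2 differences. Of these G6pc and Pck1, enzymes of gluconeogenesis, were 0.83 and 0.58 higher without T3. Me1, the lipogenic malic enzyme, gave -0.15 by the mean of its probe sets. Thrsp (-0.68), Fasn (-1.04), Cyp7a1 (-0.46), Cpt1a (0.35), Slc16a10 (-0.35) and Serpina7 (-0.55) were undecided. By the mean of its 3 probe sets, which ran from -1.13 to -0.68, Thrsp was called lower (-0.97, adjusted p = 0.0143). With 1 array left out the adjusted p ran from 0.0497 to 0.353 for Thrsp and from 0.0218 to 0.429 for Fasn. Cyp7a1, which catalyses the first step from cholesterol to bile acids, read 11.77, 12.10 and 11.96 in WT_T3 and 11.07, 12.22 and 11.15 in KO_T3, which overlapped. Fasn, fatty acid synthase, read 13.26, 13.04 and 13.51 against 13.08, 11.35 and 12.26, with the knockout arrays spread widely.

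Of 15 receptors, partners and coregulators, 13 reached the wild-type level, a share close to the 86.5% of all genes tested. Thra, the remaining receptor gene, read 8.24, 8.06 and 8.15 in WT_T3 and 7.91, 8.33 and 8.08 in KO_T3 (-0.04 ± 0.12, interval -0.29 to 0.20). Rxrg, an RXR gene, was higher by 0.44 (adjusted p = 0.0487), a call lost without KO_T3 array 1, KO_T3 array 2, KO_T3 array 3, WT_T3 array 1 or WT_T3 array 2 (adjusted p up to 0.194). Of 13 genes of deiodination, transport and carriers, 2 were lower, Dio1 and the sulfotransferase Sult1a1 (-0.35, adjusted p = 0.049), and 1 was higher, the organic anion transporter Slco1a1 (1.64 ± 0.39, adjusted p = 0.0125). The Slco1a1 call was lost without KO_T3 array 1 or WT_T3 array 2 (adjusted p up to 0.0555) and that of Sult1a1 without any 1 of the 6 arrays (up to 0.17). The calls of Rxrg (adjusted p = 0.428), Slco1a1 (0.188) and Sult1a1 (0.216) were lost with the covariate, and that of Rxrg with the 6 arrays alone (0.0636).

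Mitochondrial genes were counted in a pair of lists. Of 26 genes of the citric acid cycle, shuttles and coenzyme Q, 6 were lower and 0 higher, and 19 reached the wild-type level. Pdhb, a subunit of pyruvate dehydrogenase, read 13.04, 13.07 and 13.07 in WT_T3 and 12.69, 12.34 and 12.38 in KO_T3 (-0.59 ± 0.10, adjusted p = 0.00108), and Pdk2, the kinase that inhibits that enzyme, read 10.23, 10.15 and 10.12 against 9.73, 9.57 and 9.65 (-0.51 ± 0.08, adjusted p = 0.000454). Coq10a, a coenzyme Q binding protein, was lower, at -0.62 ± 0.09 (adjusted p = 0.000176), with 2 of its 4 probe sets of opposite sign and a mean over them of -0.21 (adjusted p = 0.0731), and Cs, citrate synthase, at -0.39, a call lost without KO_T3 array 2, WT_T3 array 1 or WT_T3 array 3 (adjusted p up to 0.107) or with the 6 arrays alone (0.061). Idh3a and Gpd2, of which Gpd2 lost its call without any 1 of the 6 arrays, were the other lower members. Without T3 Pdk2 was lower too (-0.32), whereas Pdhb (0.45) and Coq10a (0.65) were higher. Of 20 oxidative phosphorylation subunits, 0 were called by limma and all 20 reached the wild-type level, with a median difference of 0.09. The difference between the 2 lists was not tested.

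Lipid genes moved in both directions. Of 23 genes of fatty acid and triglyceride synthesis, 4 were lower, 1 was higher and 12 were undecided. Srebf1, which encodes the lipogenic factor SREBP-1c, read 13.48, 13.63 and 13.55 in WT_T3 and 12.90, 12.81 and 12.68 in KO_T3 (-0.76 ± 0.13, adjusted p = 0.000908). Agpat2, an acyltransferase of triglyceride synthesis, was lower, at -0.69 ± 0.12 (adjusted p = 0.000726), and Nr1h3, the oxysterol receptor LXRα, was higher by 0.41 ± 0.07 (adjusted p = 0.00125). Of 23 genes of fatty acid oxidation and ketogenesis, 6 were higher and 1 lower. Creb3l3, a transcription factor of fasting, read 11.61, 11.68 and 11.50 against 12.06, 12.11 and 12.04 (0.48 ± 0.06, adjusted p = 2.25e-05); Acot3, Fgf21, Acot4 (0.77), Bdh1 (0.31) and Acadvl (0.22) were the other higher members. The calls of Acot4, Bdh1 and Acadvl were lost without KO_T3 array 2 or any 1 of the WT_T3 arrays (adjusted p up to 0.214, 0.142 and 0.211), that of Acot4 also without KO_T3 array 1 and that of Acadvl without KO_T3 array 3. Acot1, a cytosolic thioesterase, was lower, at -1.01 (adjusted p = 0.0202), a call lost without KO_T3 array 1 or WT_T3 array 3 (adjusted p up to 0.121). Beside Acot3 and Fgf21, the covariate ended the calls of Acot4 (adjusted p = 0.133), Bdh1 (0.201), Acadvl (0.398) and Acot1 (0.0625). The fit of the 6 arrays alone ended the same 4 (0.0803, 0.0879, 0.137 and 0.0642), and the mean of probe sets those of Acot4 (0.0647) and Bdh1 (0.54, adjusted p = 0.178).

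Sterol genes were less settled. Of 17 genes of cholesterol synthesis and uptake, 0 were called by limma, 4 reached the wild-type level and 13 were undecided. Of 18 genes of bile acid synthesis, sterol disposal and biliary export, 3 were higher and 1, Abcg8, lower. Nr1h4, which encodes the bile acid receptor FXR, read 10.71, 10.69 and 10.58 in WT_T3 and 11.16, 11.37 and 11.39 in KO_T3 (0.65 ± 0.09, adjusted p = 0.000172). Baat, which conjugates bile acids, was higher by 0.41 (adjusted p = 0.013), a call lost without WT_T3 array 2 (0.0621), and Fgfr4, the hepatic receptor of the ileal hormone FGF15, by 0.42 (adjusted p = 0.0207), a call lost without KO_T3 array 2, KO_T3 array 3 or WT_T3 array 3 (up to 0.105). Of 15 apolipoprotein and lipoprotein assembly genes 2 were higher, Apoa4 and Apoa5 (0.26, adjusted p = 0.00464), and 12 reached the wild-type level. With the covariate the Baat (adjusted p = 0.0757) and Fgfr4 (0.109) calls were lost, and with the 6 arrays alone that of Apoa5 (0.0676). The mean of the 5 Fgfr4 probe sets was 0.26.

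Of 16 genes of growth hormone and IGF signalling, 8 were called. Stat5a, a transducer of the growth hormone receptor, read 9.21, 9.05 and 9.18 in WT_T3 and 8.08, 8.28 and 8.20 in KO_T3 (-0.96 ± 0.09, adjusted p = 1.59e-06). Stat5b, the other STAT5 gene, read 10.19, 10.14 and 10.24 against 9.34, 9.27 and 9.33 (-0.87 ± 0.08, adjusted p = 1.43e-06). Both were lower in knockout liver with T3 and higher without it, by 0.49 and 0.28. Igfals, the acid-labile subunit that carries IGF1 in serum, read 9.56, 9.81 and 9.54 against 10.48, 10.68 and 10.48 (0.91 ± 0.12, adjusted p = 9.18e-05), and was not called without T3 (0.10, adjusted p = 0.747). Igf1 itself (0.54 ± 0.11, adjusted p = 0.00443), the insulin receptor substrate Irs1 (0.64 ± 0.13, adjusted p = 0.00382), Socs2, Cish and Socs3 (1.64) were the other higher members, and Socs3 lost its call without KO_T3 array 1, KO_T3 array 2, WT_T3 array 2 or WT_T3 array 3 (adjusted p up to 0.117). Of 17 genes of liver output patterned by growth hormone, 3 were higher and 8 undecided. The covariate ended the calls of Irs1 (adjusted p = 0.107) and Socs3 (0.278).

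Of 18 hepatocyte transcription factors and xenosensors, 5 were higher and 2 lower. Nr1i2, which encodes the xenobiotic receptor PXR, read 8.85, 8.65 and 8.88 in WT_T3 and 9.92, 9.59 and 9.35 in KO_T3 (0.83 ± 0.13, adjusted p = 0.000431). Hnf4a was higher by 0.43 ± 0.07 (adjusted p = 0.000712), with 1 of its 4 probe sets of opposite sign and a mean over them of 0.27 (adjusted p = 0.0561), and Foxa1 (0.75), Prox1 (0.73) and Onecut1 were the others, of which Prox1 lost its call without KO_T3 array 1, KO_T3 array 2, WT_T3 array 1 or WT_T3 array 2 (adjusted p up to 0.11). Cebpb, which encodes C/EBPβ, read 12.91, 13.09 and 12.88 against 12.29, 12.28 and 12.03 (-0.76 ± 0.13, adjusted p = 0.00118), and Nr3c1, the glucocorticoid receptor, was lower, at -0.53 ± 0.10 (adjusted p = 0.00164), with 1 of its 6 probe sets of opposite sign. In the circadian clock list, Nfil3, a repressor of the bZIP class, was higher by 1.14 ± 0.20 (adjusted p = 0.00106), and 2 of the 17 members were lower. Of the latter, Per3 (-0.69) lost its call without KO_T3 array 3 or WT_T3 array 1 (adjusted p up to 0.0722) and Cry1 (-0.70) without KO_T3 array 2, KO_T3 array 3, WT_T3 array 1, WT_T3 array 2 or WT_T3 array 3 (up to 0.2). Prox1 (adjusted p = 0.172), Per3 (0.103) and Cry1 (0.376) also lost their calls with the covariate. With the 6 arrays alone Foxa1 (0.0562), Prox1 (0.0643), Per3 (0.0856) and Cry1 (0.0698) lost theirs, and the mean of probe sets gave 0.43 for Prox1. By the mean of its 6 probe sets Per3 lost its call too (-0.36, adjusted p = 0.0692).

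Of 21 acute phase genes, 7 were higher and 0 lower. Cxcl1, a chemokine that attracts neutrophils, read 7.84, 7.71 and 7.56 in WT_T3 and 8.93, 8.82 and 8.58 in KO_T3 (1.08 ± 0.21, adjusted p = 0.00233). Crp (0.41), Serpina3n (0.39), Steap4 (0.51), Fga (0.22), Hpx (0.18) and Fgb (0.17) were the others, all under 1.5-fold. Fga lost its call without KO_T3 array 2 or WT_T3 array 2 (adjusted p up to 0.0678), Fgb without any 1 of the 6 arrays (up to 0.188), and Steap4 and Hpx without any 1 of the 6 but KO_T3 array 3 (up to 0.181 and 0.117). Of 22 coagulation and complement genes, 3 were higher and 0 lower, among them Cfb, complement factor B (0.43 ± 0.07, adjusted p = 0.00049), which was 0.55 higher without T3 too. Of the 7 acute phase calls, those of Crp (adjusted p = 0.0686), Steap4 (0.0672), Fga (0.0746), Hpx (0.111) and Fgb (0.209) were lost with the covariate. The 6 arrays alone gave no call for Serpina3n (0.058), Steap4 (0.0979), Fga (0.0992), Hpx (0.156) and Fgb (0.172). Without T3, 4 of the 21 acute phase genes were higher and 0 lower. The median difference of the list was 0.16 without and 0.14 with T3, and the change in the genotype difference was called for 1 member.

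Of 21 conjugation and related enzymes of detoxification 4 were lower, 0 higher, 13 reached the wild-type level and 4 were undecided, and of 21 cytochromes P450 of families 1 to 3, 3 were lower, 0 higher and 17 reached the wild-type level. Cyp2c23 was lower, at -0.53 ± 0.10 (adjusted p = 0.00233). Cyp1a2 was lower, at -0.58 ± 0.14 (adjusted p = 0.0169), a call lost without KO_T3 array 1 or WT_T3 array 2 (adjusted p up to 0.113) or with the 6 arrays alone (0.102). Of 18 solute carriers of hepatocytes, 4 were lower, 1 was higher, 4 reached the wild-type level and 9 were undecided. Beside Slc25a45, the lower ones were Slc38a2, an amino acid transporter (-0.84 ± 0.16, adjusted p = 0.00262), Slc41a2, a magnesium transporter (-0.86 ± 0.18, adjusted p = 0.00442), and Slc23a2, a vitamin C transporter (-0.67 ± 0.14, adjusted p = 0.00373). Slc38a2 (adjusted p = 0.0823) and Slc41a2 (0.118) lost their calls with the covariate, and the means over probe sets were -0.44 for Slc38a2 and -0.35 for Slc23a2. Of 14 Krüppel-like factors and 19 immediate early genes, limma called 0 in either list, and 5 and 11 of them were undecided.

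**Figure D5:**
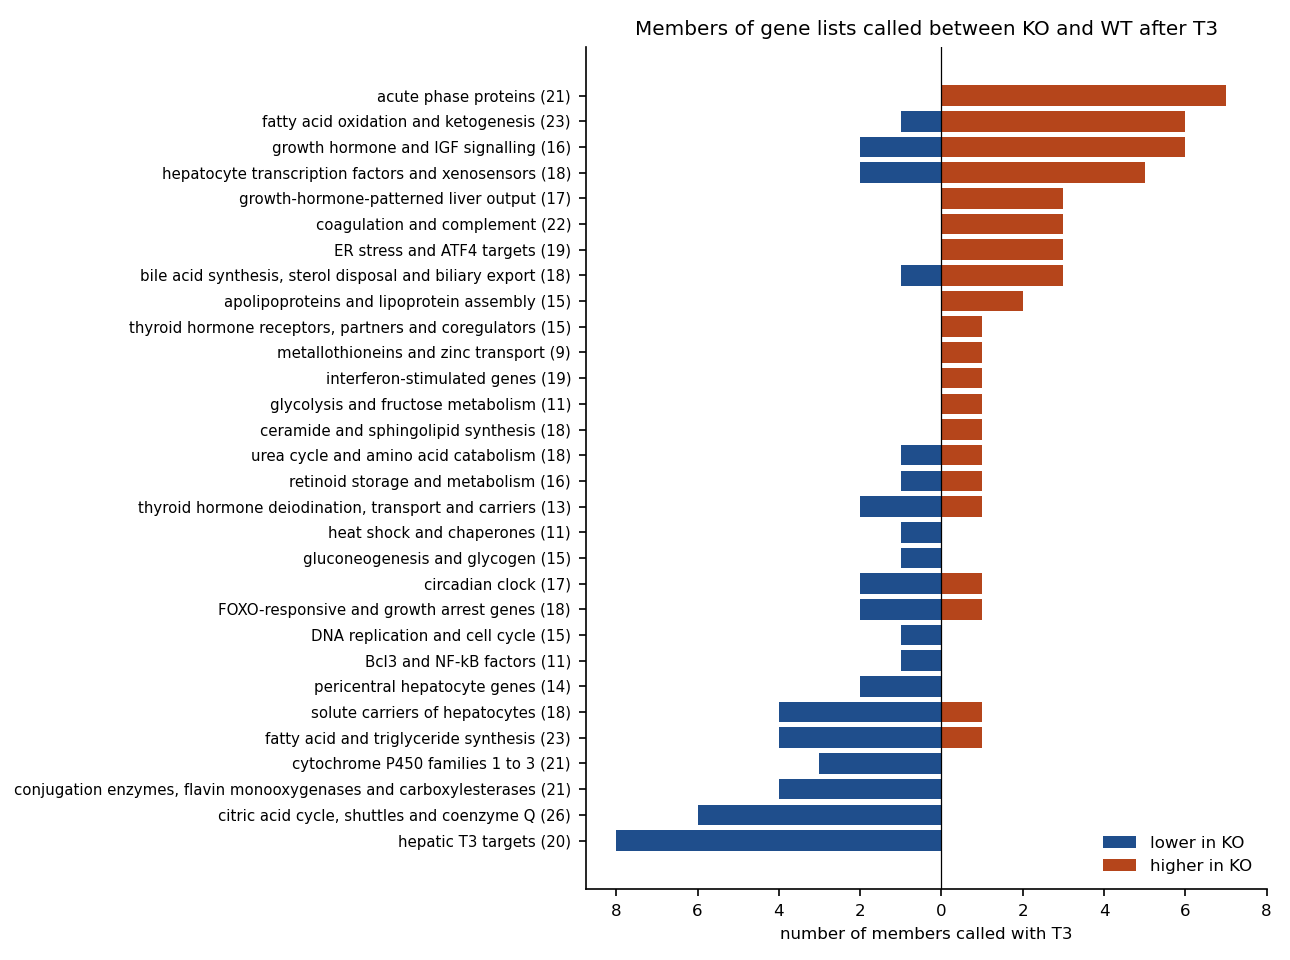
Bars count, for each functional gene list with at least 1 call (measured members in brackets), the members called lower in KO_T3 than in WT_T3 (to the left, blue) and higher (to the right, red). The bars of the hepatic T3 targets and the citric acid cycle list extend only to the left, with 8 and 6 members, and that of the acute phase proteins only to the right, with 7. The lists were chosen with earlier results of these data known.

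Genes beside Thrb on chromosome 14 were examined because a deleted allele can travel with neighbouring sequence of another strain. Its part in the values that follow was not tested. Of the 20 nearest genes tested, 4 were called with T3 and 5 without it. Of all genes tested, 6.93% were called with T3, while without it 3.76% were higher and 3.11% lower. Nkiras1, a regulator of NF-κB inhibitors, read 9.45, 9.43 and 9.49 in WT_T3 and 10.26, 9.91 and 9.97 in KO_T3 (0.59 ± 0.09, adjusted p = 0.00034) and was 1.03 higher without T3. Il3ra (0.52 with and 0.52 without T3) and Thoc7 (0.34 and 0.37) were higher in both, and Ube2e1 (-0.38 and -0.31) lower in both. The Thoc7 call with T3 was lost without KO_T3 array 2, KO_T3 array 3, WT_T3 array 1 or WT_T3 array 2 (adjusted p up to 0.137). That of Il3ra was lost with the covariate (adjusted p = 0.136) and with the 6 arrays alone (0.0668), and that of Ube2e1 by the mean of its 2 probe sets (-0.21, adjusted p = 0.0576).

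Markers of other cells were measured beside these results, since in whole liver fewer cells of a type and less RNA per cell cannot be told apart. The mean over 9 hepatocyte markers was 14.35 to 14.37 in the WT_T3 arrays and 14.41 in each KO_T3 array, with Hnf4a and Fgb called higher and 7 having reached the wild-type level. Of 14 Kupffer cell markers Cd163 was called, lower, at -0.68 (adjusted p = 0.0493), a call lost without any 1 of the 6 arrays or with the covariate (0.218). It was also lost in the fit that used the mean of the probe sets of each gene (0.0513), though Cd163 has 1 probe set and its difference stayed at -0.68. The mean over the 14 markers was 8.52 to 8.87 in WT_T3 and 8.55 to 8.93 in KO_T3. Of 13 sinusoidal endothelial, 13 stellate, 6 cholangiocyte and 8 neutrophil or monocyte markers, limma called 0. Of 7 lymphocyte markers Ighm was called and the other 6, Ptprc, Cd3d, Cd3e, Cd79b, Ms4a1 and Nkg7, reached the wild-type level with differences from -0.08 to 0.18; the mean over the 7 was 6.78 to 6.80 in WT_T3 and 6.42 to 6.64 in KO_T3. Of 4 pancreatic acinar markers Cela2a was lower (-1.03 ± 0.15, adjusted p = 0.000172) and Cela1 higher (0.45, adjusted p = 0.0135), while Prss2 (-0.01) and Ctrb1 (0.01) were not called. The Cela1 call was lost without KO_T3 array 1 or WT_T3 array 3 (adjusted p up to 0.084), with the covariate (0.0715) and with the 6 arrays alone (0.0517), and that of Fgb as given above. The part of other cells in the differences above was not tested.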

How the data were processed

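Liver RNA of 24 mice had been hybridised to 1-colour Affymetrix arrays of 45101 probe sets, 3 arrays in each of 8 groups. The deposited values are log2 intensities, made by the authors with RMA per the submitters' processing notes, version not given; depth does not apply. The Y147F columns had lost their decimal mark, which was put back; 775 ambiguous cells (0.286%) were set missing, and the same step on the intact columns restored 809324 values with 0 wrong. A probe set was named from the platform annotation where it had 1 symbol (34958; 932 had several, 9211 none), and the brightest stood for its gene. Genes above the 40th percentile of an array in at least 3 arrays were tested (14162, of which 232 had a missing cell).

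All 24 arrays were fitted with 8 group means (limma 3.58.1 in R 4.3.3, eBayes, Benjamini-Hochberg, adjusted p under 0.05; 16 residual and 4.28 prior degrees of freedom), so groups share 1 estimate of the spread. On simulated data for KO_T3 minus WT_T3, 30% of genes changed 1.25-fold, 90% changed 1.5-fold and 100% changed 2-fold were recovered. Genes named came from sets fixed by rule, not all of whose members are given. The sets are the 15 largest falls and 15 largest rises whose arrays do not overlap, the hepatic T3 targets, Thrb and Thra. They also hold up to 4 called members of each list, up to 8 of each Y147F class and called Thrb neighbours. Other list members were named after their values were seen. The comparison and the lists were chosen with earlier results of these data known. Alternatives covered normalisation, filters, probe sets, arrays fitted, array weights, a covariate for title numbers, margins and single arrays left out; the overlap counts, and the change in genotype difference with an array left out, were added after seeing the data. Promoters came from RefSeq tables on GRCm38.p6; no genome was used. WT_T3 minus WT_PBS and KO_T3 minus KO_PBS share arrays with the comparison. No test or count of them is given, though levels of named genes in these groups are set side by side.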

Additional observations from a re-analysis of the deposited data

Results flagged for a closer look

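For 437 genes the difference between knockout and wild-type liver with T3 differed from that without T3, by limma's test of the difference between the 2 differences. It was higher with T3 for 146 genes and lower for 291. Among the genes named above, the values, as KO minus WT with T3 less KO minus WT without T3 on the log2 scale, follow. Genes below the wild-type level with T3 had values of -4.80 (Dio1, resting on a WT_PBS signal not clearly above background), -2.84 (Frmd8), -2.67 (Bcl3), -2.43 (Bmf), -1.79 (Ighm, by 1 of its 11 probe sets), -1.58 (Sned1), -1.51 (Gpcpd1) and -1.23 (1700067K01Rik). Genes above it had 4.16 (Acot3), 3.08 (Socs2), 2.10 (Cish), 1.81 (Inhbe) and 1.30 (Etfbkmt). Genes that reached it had -1.53 (Nudt7), -1.35 (Osgin1), -1.35 (Pdp2), -1.34 (Nsmf), -0.95 (Mmd), -0.86 (Dock8) and -0.64 (Ciapin1).

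Probe sets without a single gene symbol, which entered no comparison above, also gave calls between KO_T3 and WT_T3. Of 4118 such probe sets tested by limma, 64 (1.55%) were called, 30 higher and 34 lower. Groups of 3 arrays were not searched for single outlying arrays.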

How the results depend on the processing

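No paired analysis was possible because the replicate numbers are only the order of deposit. Of the 117 called genes named by rule, 52 kept direction and call in all 15 settings and 70 whenever 1 of the 6 arrays was left out; 0 reversed. The covariate for title numbers ended 49 of these calls and the fit of the 6 arrays alone 28. Genes higher in KO_T3 numbered 290 with the 6 arrays alone, 761 with array weights, 141 with the covariate, 49 at 2-fold or more and 265 to 357 with 1 array left out; genes lower numbered 298 with the covariate, 38 at 2-fold or more and 338 to 417 with 1 left out. Without T3, 310 were higher with the covariate, and the change in genotype difference was higher for 93 to 120 with 1 left out. Raised genes below wild type were 72 at a Y147F change of 2-fold or more (203 to 231 with 1 left out); raised genes above were 18 with weights, 1 with the covariate, 3 at 2-fold or more and 5 to 8 with 1 left out; raised genes that reached were 240 at the margin of 0.32 (log2) and 11 at 2-fold or more. Lowered genes above were 99 with the 6 arrays, 56 with the covariate, 28 at 2-fold or more and 100 to 129 with 1 left out; lowered genes below were 7 with no filter, 17 with the filter at the 60th percentile, 7 with the 6 arrays, 18 with weights, 3 with the covariate, 0 at 2-fold or more and 4 to 9 with 1 left out; lowered genes that reached were 328 with the covariate, 321 at the margin of 0.32 (log2) and 3 at 2-fold or more. Genes higher with and without T3 were 172 with weights, 32 with the covariate and 72 to 93 with 1 left out, and genes lower in both 41 with the covariate and 51 to 76 with 1 left out. Genes higher in KO_T3 and in GS_T3 minus Y147F_T3 were 271 with weights and 67 with the covariate. Other counts stayed within 1.5 times; the causes were not tested.

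Differences that changed sign belong to uncalled genes. With the covariate they were -0.01 (Apoa1), 0.15 (Cyp7a1), -0.10 (Il17rb) and 0.09 (Slc43a1); with array weights -0.05 (Slc39a6); with the mean of probe sets -0.15 (Me1) and -0.03 (Nudt7). With 1 array left out the differences ran from -0.25 to 0.05 (G6pc, 0.00 without WT_T3 array 1), -0.09 to 0.32 (Me1, also -0.07), -0.15 to 0.06 (Thra, also 0.00), -0.19 to 0.11 (Per1, also 0.01, 0.06 and 0.10), -0.02 to 0.20 (Spata2l, also -0.01), -0.08 to 0.07 (Slc43a1, also 0.04), -0.02 to 0.21 (Nudt7), -0.30 to 0.05 (Osgin1), -0.20 to 0.28 (Slc39a6) and -0.02 to 0.06 (Il17rb). Signal near background limits Dio1 in WT_PBS, where its differences are between signals only.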
